A study of Mus musculus with 24 samples.

Results

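The enzymes described here oxidise, reduce, hydrolyse or conjugate foreign compounds and hormones: cytochromes P450, alcohol and aldehyde dehydrogenases, carboxylesterases, glutathione transferases, UDP-glucuronosyltransferases and cytosolic sulfotransferases. Members were all probe sets of the array whose gene symbol is Cyp followed by a digit (without Cyp51), begins with Gsta, Gstm, Gstp, Gstt, Gsto, Ugt, Sult, Aldh or Ces, or is Adh followed by a digit. The rule took 109 of 12488 probe sets, for 83 of 8252 genes, and used no signal. A further 8 probe sets list several genes, at least 1 of them in these families, and are not named. The names of 33 member probe sets carry a suffix for probes that related genes can share, so close relatives such as the Gstm, Cyp2d and Ces1 genes may not be separated by them. The signals of 72 members, for 57 genes, lay above 51.5 on at least 3 arrays and were tested: 25 of 46 cytochrome, 4 of 6 alcohol dehydrogenase, 14 of 18 aldehyde dehydrogenase, 4 of 6 carboxylesterase, 18 of 20 glutathione transferase, 2 of 3 glucuronosyltransferase and 5 of 10 sulfotransferase probe sets. The other 37 members had no signal above 120.1 on any array, and 26 genes were represented by these alone. Among them were Cyp7a1 and Cyp8b1 of bile acid synthesis, Cyp17a1 and Cyp11a1 of steroid synthesis, Cyp1a2, Cyp26a1, Cyp4a10, Cyp4a14, Adh4, Aldh1a2, Gsta1 and Sult2a2.

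Total RNA of whole mouse tissue was measured on 24 arrays, 3 for each of 4 regions in conventional mice, which carry a microbiota, and in germ-free mice, which do not. From each animal 4 regions were dissected: stomach corpus, jejunum, descending colon and rectum. Strain, age and sex are not given in the sources used here, and the labels do not tie the replicate numbers of different regions to 1 mouse. P-values therefore rest on the spread among the samples of a group, which may be technical. A signal here is the fluorescence of a probe set on a linear scale that the authors had brought to the same trimmed mean (200.1 to 200.14) on every array. In whole tissue, fewer cells of a type and less RNA per cell cannot be told apart.

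Region markers opposed the label of 3 libraries. The library labelled conventional jejunum 3 had 13.8 for Apoa4, an apolipoprotein of enterocytes, and 1626 for the hindgut factor Hoxb13. The library labelled conventional rectum 1 had 2766 and 41.7. The library labelled germ-free corpus 3 had 176 for the proton pump subunit Atp4a and 1399 for Hoxb13. Signs of a second region were seen in germ-free colon 1 (Hoxb13 112, and the enterocyte lipid carrier Fabp2 4005) and germ-free rectum 1 (Atp4a 1968). Raised markers were also seen in germ-free jejunum 3 (Atp4a 874, against 111 to 186 on the other jejunum arrays) and germ-free corpus 2 (the colonocyte enzyme Car1 1432.5), which stayed in the sets without 3 and without 5 libraries. Results are therefore given with all 24 arrays and without the 3 libraries, and where it matters without all 5. The liver marker Alb stayed between 19.2 and 78.8 on every array. A comparison was tested with limma over all 9033 probe sets that passed the signal filter, after signals under 21.2 had been raised to that floor, and a member is called where the Benjamini-Hochberg adjusted p is under 0.05.

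Foreign compounds taken up with food meet these enzymes in the gut wall before they reach the liver. Cytochromes, dehydrogenases and esterases expose or create a reactive group, and the transferases then attach glutathione, glucuronic acid or sulfate so that the product can be exported. Many of the genes are induced through the receptors Ahr, Nr1i2 (PXR) and Nr1i3 (CAR) or through the stress factor Nfe2l2, and the small intestine is known as the main site of cytochrome activity outside the liver.

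Without the 3 libraries the highest regional mean was in the corpus for 30 of the 72 probe sets (41.7%, against 34.6% of all probe sets), in the jejunum for 24 (33.3%, against 25.5%), in the colon for 11 (15.3%, against 22.6%) and in the rectum for 7 (9.72%, against 17.3%). Every array of the corpus lay above every other array for 14 members (19.4%, against 6.23% of all), and every array of the jejunum for 6 (8.33%, against 3.64%). No member of the colon or rectum group did so (0% and 0.0111% of all).

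**Figure D1:**
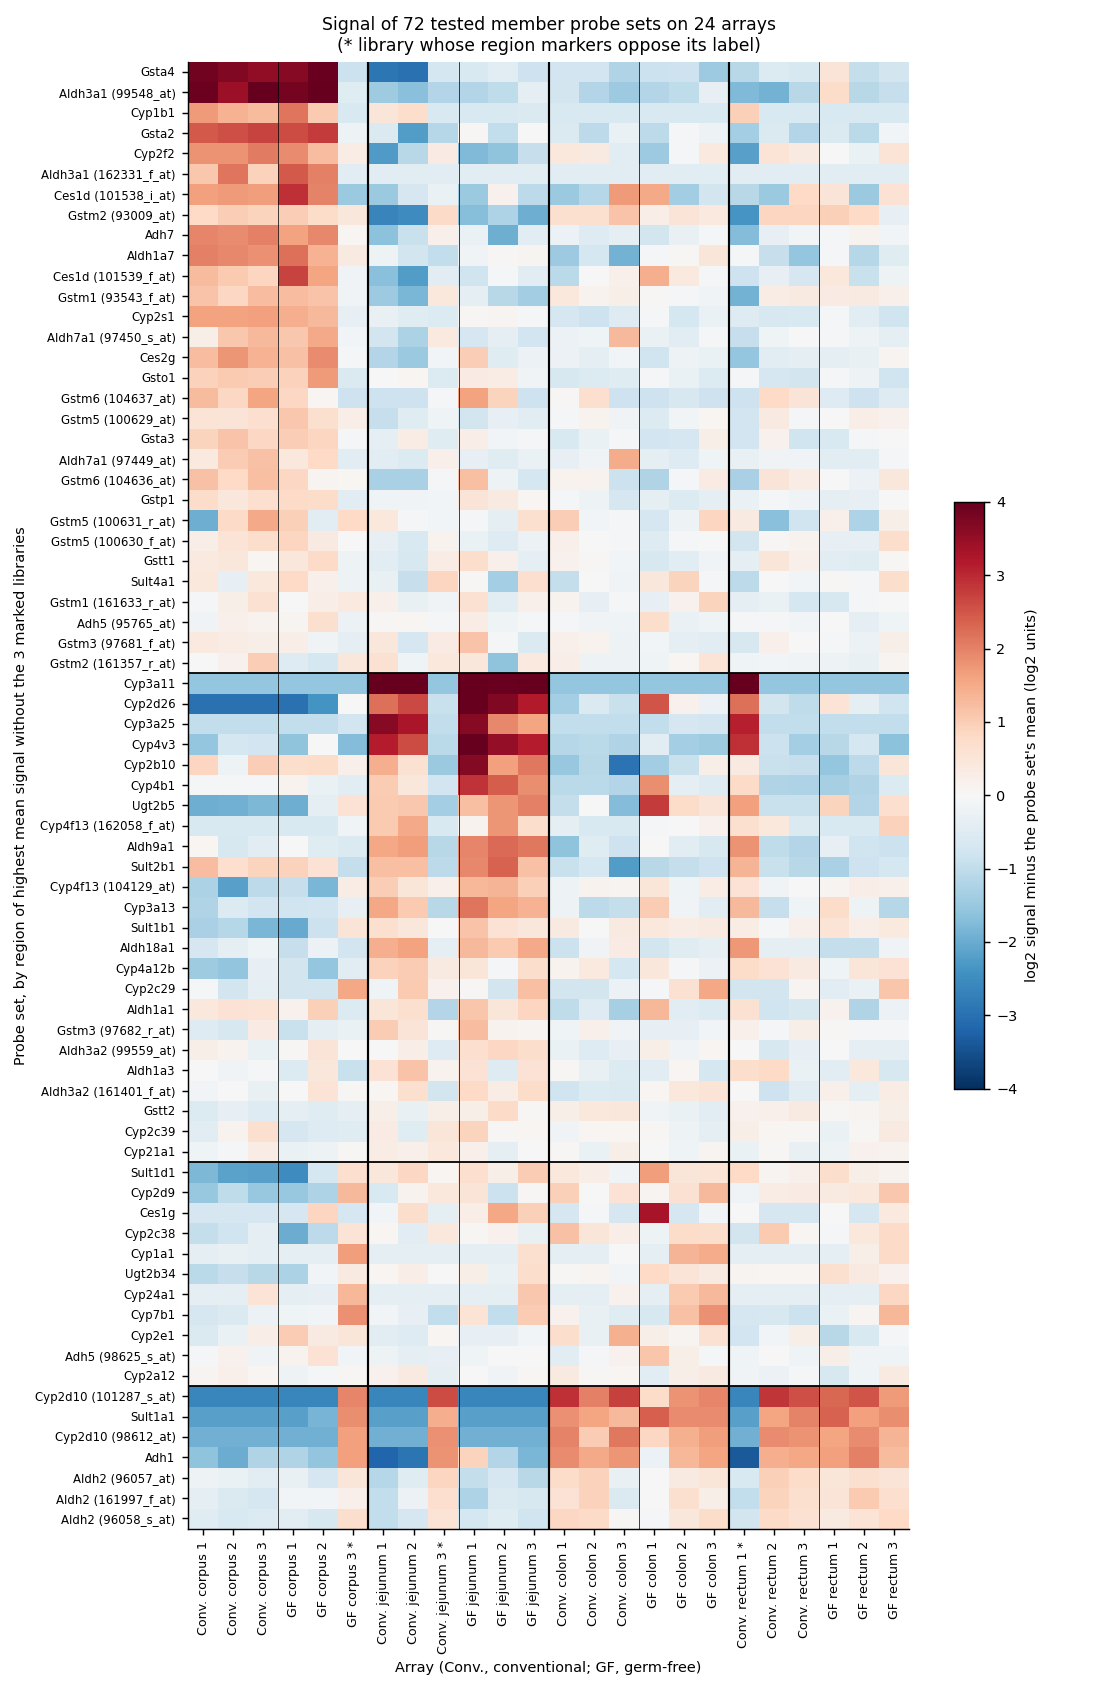
Each row is 1 of the 72 tested member probe sets and each column 1 of the 24 arrays; the colour is the log2 signal minus the probe set's mean over the arrays, from -4 to 4, and horizontal lines divide the probe sets by the region of highest mean. The 3 columns marked with a star (germ-free corpus 3, conventional jejunum 3, conventional rectum 1) show the pattern of another region.

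Between jejunum and corpus, over both microbial states, 38 of 72 members were called (52.8%), against 32.9% of all probe sets. Of these, 17 were higher in the jejunum (13.7% of all probe sets were) and 21 lower (19.2% of all). Without the 3 libraries 44 members were called, 20 higher and 24 lower, against 38.6% of all (16.8% higher and 21.9% lower). The median difference of the members was -0.11 on the log2 scale and that of all probe sets -0.10. Equalising the array medians moved the latter to 0.08 and the split of the members to 22 higher and 18 lower. By family, 9 of 25 cytochrome probe sets were called higher in the jejunum and 3 lower, and 2 of 18 glutathione transferase probe sets higher and 9 lower. Both glucuronosyltransferases and 2 of 5 sulfotransferases were higher in the jejunum, and 3 of 4 carboxylesterase probe sets were lower.

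Cyp3a11, the main drug-oxidising cytochrome of the mouse liver and gut, had signals of 2467, 975 and 1474 in the 3 germ-free jejunum arrays, of 1545 and 1874 in conventional jejunum 1 and 2, and of 1507 in the library labelled conventional rectum 1. On the other 18 arrays it lay between 1.9 and 11.0, under the floor, the library labelled conventional jejunum 3 included. The jejunum exceeded the corpus at least 36.6-fold (5.19 ± 0.94 in log2 units, ± SE; adjusted p = 0.000281 by limma), and at least 76-fold without the 3 libraries. Cyp3a25, its neighbour in the genome with no coding gene between them, had 353 ± 197 (SD, n = 5) in the jejunum and 4.96 ± 3.38 (n = 5) in the corpus without the 3 libraries. A further gene of the family, Cyp3a13, was less restricted: 1427 ± 415 in the jejunum against 273 ± 43.1 in the corpus and 438 ± 271 (n = 6) in the colon. Its jejunal level exceeded that of the corpus 3.56-fold (adjusted p = 0.00238, limma).

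Cyp4v3, a fatty acid hydroxylase, had a mean of 4346 ± 2133 (n = 5) in the jejunum and lay at 223 ± 104 in the corpus. It was 12.9-fold higher in the jejunum with all arrays (adjusted p = 0.000232, limma) and 18.3-fold without the 3 libraries. Cyp4f13, which acts on long-chain fatty acids and eicosanoids, was 2.45-fold and 4.11-fold higher by its called probe sets, and Cyp4a12b, a fatty acid hydroxylase, 2.98-fold higher. Cyp4b1, which activates several protoxins, was 2.72-fold higher. Cyp2d26 lay under the floor on the 3 conventional corpus arrays and in germ-free corpus 1, at 32.1 in germ-free corpus 2, and at 1632 ± 784 in the jejunum without the 3 libraries, 28.9-fold higher with all arrays (adjusted p = 1.7e-05, limma). Outside the cytochromes, Aldh18a1 of proline synthesis (3.07-fold), Aldh9a1 of carnitine synthesis (3.38-fold), the glucuronosyltransferases Ugt2b5 (4.54-fold) and Ugt2b34 (1.8-fold), the sulfotransferases Sult1b1 (3.12-fold) and Sult1d1 (3.98-fold), and the glutathione transferases Gstt2 (1.56-fold) and Gstm3 (1.88-fold, by 1 of 2 probe sets) exceeded their corpus level in the jejunum.

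Members called higher in the corpus came from the glutathione transferases, aldehyde dehydrogenases, carboxylesterases, cytochromes and alcohol dehydrogenases. Gsta4, the glutathione transferase that conjugates the lipid peroxidation product 4-hydroxynonenal, had signals of 2431, 2158 and 1940.3 in the conventional and 2081 and 2566 in the first and second germ-free corpus arrays, and of 92.1 in the library labelled germ-free corpus 3. No array of another region exceeded 241, the value of germ-free rectum 1. It was 20.9-fold lower in the jejunum than in the corpus with all arrays (adjusted p = 1.54e-05, limma) and 46.3-fold lower without the 3 libraries. Aldh3a1, an aldehyde dehydrogenase abundant in cornea and stomach, had 2139 ± 373 (n = 5) in the corpus and 69.7 ± 25 (n = 5) in the jejunum without the 3 libraries. It was 33.8-fold lower in the jejunum without the 3 libraries (adjusted p = 1.02e-10, limma). Germ-free rectum 1, whose Atp4a signal was raised, again had the highest hindgut value, 242.

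Lower in the jejunum than in the corpus with all arrays were also Gsta2 (7.86-fold), Adh7, the retinol- and ethanol-oxidising class IV enzyme of the stomach (5.33-fold), Aldh1a7 (3.84-fold), the epithelial cytochrome Cyp2s1 (2.68-fold) and Cyp2f2, known from the airway (6.66-fold). The same direction was called for Gstm1 (3.61-fold) and Gstm2 (5.11-fold), each by 1 of 2 probe sets (the others had 1.17-fold and 1.04-fold, adjusted p = 0.461 and 0.914, limma), for Gstm5, Gstm6 (1 of 2), Gsta3 and Gsto1, for the carboxylesterases Ces1d (4.45-fold and 4.6-fold) and Ces2g (3.15-fold), and for Aldh7a1 and Cyp1b1. By the called probe set Gstm1 was at 6947 ± 756 in the corpus and 1456 ± 619 in the jejunum without the 3 libraries. Gstp1, the pi-class transferase, was called in neither direction with all arrays (adjusted p = 0.0739, limma). The corpus arrays also held squamous epithelium, which lines the neighbouring forestomach: the summed signal of 10 markers was 53820 to 71415 on 5 corpus arrays, 927 in the library labelled germ-free corpus 3 and at most 4843 elsewhere, and the summed signal of 6 gland markers was 29494 to 76404 on the same 5 arrays. The part of either cell type in the corpus values was not tested.

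**Figure D2:**
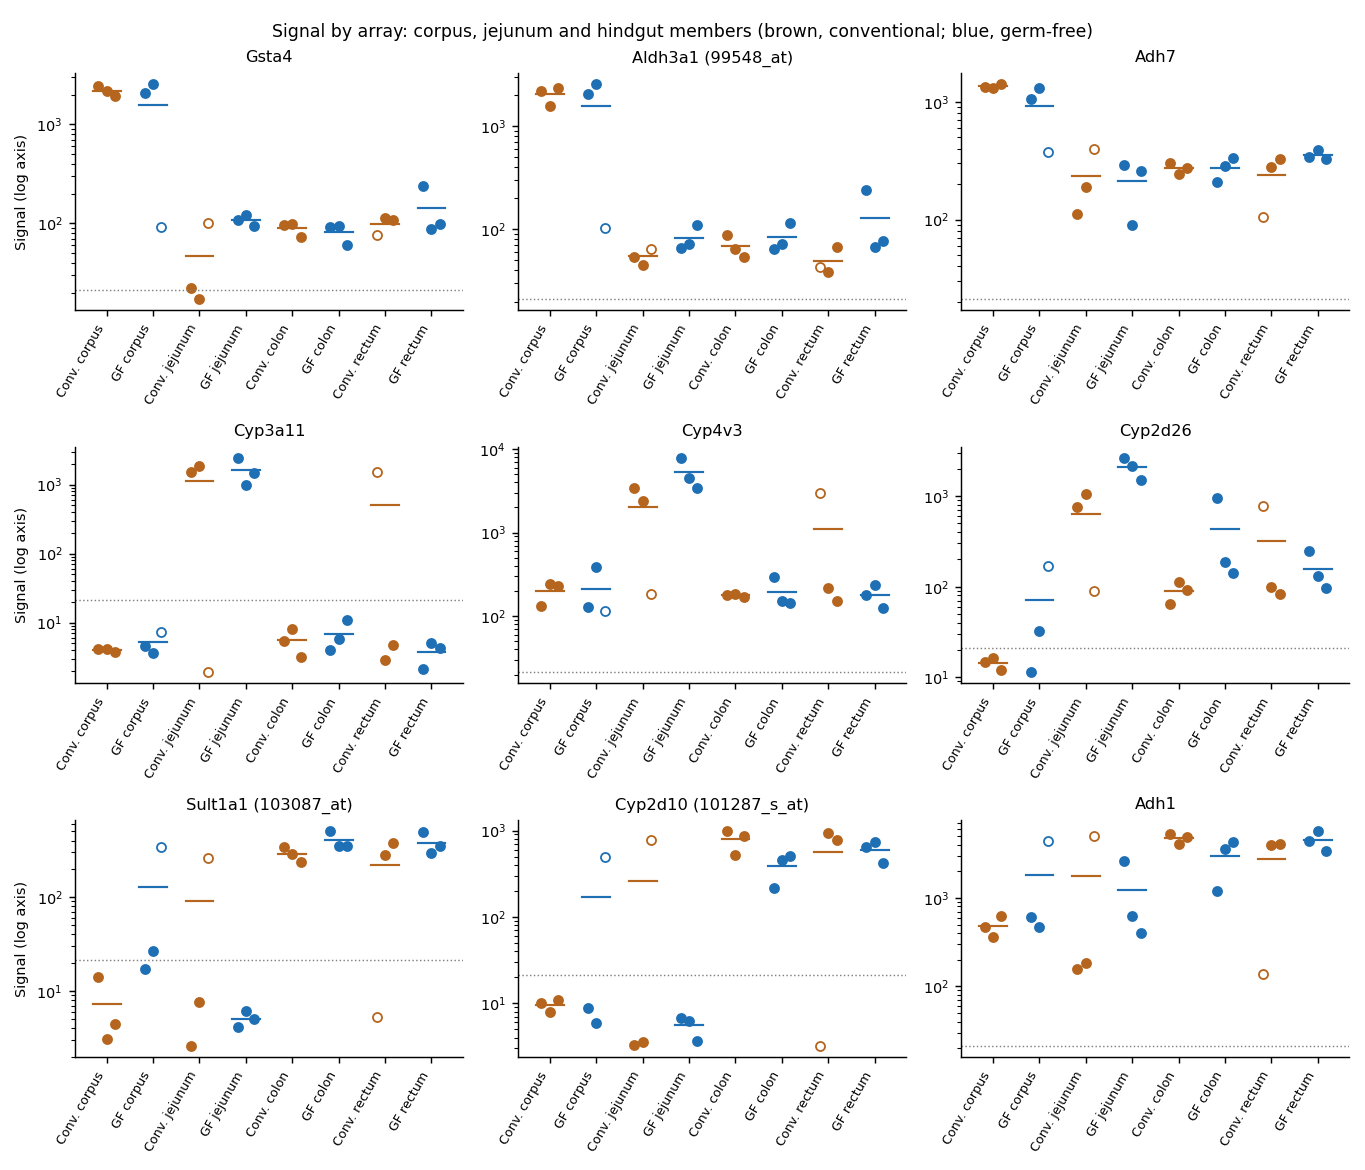
Signal on a log axis for 9 members (top, corpus; middle, jejunum; bottom, hindgut), 1 point per array, with a line at the mean of each group of 3; the dotted line is the floor of 21.2. Open points are the 3 libraries whose markers oppose their label: conventional rectum 1 lies with the jejunum, at 1507 for Cyp3a11, and germ-free corpus 3 with the hindgut, at 4395 for Adh1.

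Between colon and jejunum, 18 of 72 members were called with all arrays (25%), against 14.4% of all probe sets. Of the 18, 6 were higher in the colon (9.1% of all probe sets were) and 12 lower (5.34% of all), and the median difference was -0.00125 for the members and 0.10 for all probe sets. Equalising the array medians moved the latter to -0.06 and the split to 4 higher and 15 lower. This comparison turned on the library labelled conventional jejunum 3: without the 3 libraries 36 members were called, 16 higher and 20 lower, against 24.8% of all (15.2% of all higher and 9.54% lower), and without that library alone 28. Among the conventional arrays alone no member was called, nor was any of all probe sets (0%), and among the germ-free arrays alone 14 were, against 11.8% of all. The members lower in the colon included 7 of 25 cytochromes. Cyp2b10, a target of the receptor CAR, was at 810.4 ± 751 in the jejunum and 82.3 ± 59.8 (n = 6) in the colon without the 3 libraries, and 6.11-fold lower with all arrays (adjusted p = 0.00338, limma). Cyp3a11 (at least 36.6-fold), Cyp4v3 (13.2-fold), Cyp3a25 (8.51-fold, with 4 of 6 colon arrays under the floor), Cyp2d26 (5.78-fold), Cyp4b1 (3.24-fold) and Cyp3a13 (2.63-fold) were lower as well. So were Sult2b1, the sulfotransferase of cholesterol and other hydroxysteroids (4.79-fold), Aldh9a1 (4.2-fold), Aldh18a1 (2.76-fold), Gstm3 (1.57-fold, by 1 of 2 probe sets) and Aldh3a2 (1.39-fold, by 1 of 2). The calls of Cyp2d26, Cyp3a13, Gstm3 and Aldh3a2 were lost without conventional jejunum 1 and also without conventional jejunum 2, the first of them at an adjusted p of up to 0.0512 and the others up to 0.113, 0.126 and 0.117 on leaving out 1 array (limma).

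A small group had its high end in the hindgut. Cyp2d10 gave 986, 525 and 867 in conventional and 214, 450.3 and 503 in germ-free colon by the first of its probe sets. In the rectum it gave 934 and 767 in conventional arrays 2 and 3 and 637, 740.3 and 421 in germ-free arrays. On the 5 corpus and 5 jejunum arrays that remain without the 3 libraries no value exceeded 11.0, while the libraries labelled conventional jejunum 3 and germ-free corpus 3 had 782.5 and 500.3. With all arrays, 5 of 6 jejunum arrays being under the floor, the colon exceeded the jejunum 13.7-fold (adjusted p = 0.0132, limma) and at least 24.9-fold without the 3 libraries. The other Cyp2d10 probe set moved the same way, 6.93-fold with all arrays. Sult1a1, which sulfates phenols, lay at 345 ± 90.5 (n = 6) in the colon, at 359 ± 84.3 (n = 5) in the rectum and under the floor on all 5 remaining jejunum arrays, at least 15.8-fold higher in the colon (adjusted p = 2.52e-12, limma). Adh1, the class I ethanol- and retinol-oxidising enzyme, was at 3866 ± 1437 in the colon and 797 ± 1035 in the jejunum. It passed the threshold only without the 3 libraries (9.14-fold, adjusted p = 3.2e-06; with all arrays adjusted p = 0.0682; limma). Aldh2, the mitochondrial enzyme that clears acetaldehyde, was higher in the colon by 2 of 3 probe sets (1.92- and 1.97-fold), calls lost without either of the same 2 jejunum arrays (highest adjusted p 0.143 and 0.0896, limma). Gstm2 was 4.41-fold higher by 1 of 2 probe sets, and the other had 1.03-fold (adjusted p = 0.95, limma).

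Against the corpus, 28 members were called in the colon (38.9%), against 18.3% of all probe sets, 12 higher (9.49% of all) and 16 lower (8.77% of all); the median difference was -0.12 for the members and 0.01 for all probe sets. Without the 3 libraries 42 were called, 16 higher and 26 lower, against 29.3% of all (15.2% higher and 14.1% lower). All 5 sulfotransferase probe sets but Sult4a1 were called: Sult1a1 (9.59-fold, with 4 of 6 corpus arrays under the floor, and 15-fold without the 3 libraries), Sult1d1 (3.97-fold) and Sult1b1 (2.64-fold) were higher in the colon and Sult2b1 (3.2-fold) lower. Cyp2d10, Cyp2d9 (2.86-fold, with 3 of 6 corpus arrays under the floor), Cyp2d26 (5-fold, with 4 of 6), Cyp2c38 (2.46-fold), Cyp4f13 (2.41-fold), Cyp4a12b (2-fold) and Ugt2b34 (1.96-fold) were higher in the colon too. Cyp2s1 (3.3-fold), Cyp1b1 (at least 3.38-fold), Gsto1 (2.41-fold), Gstp1 (1.83-fold), Cyp2b10 (3.53-fold) and Gsta3 (2.18-fold) were lower, beside the corpus genes described above. Among the germ-free arrays alone no member was called between colon and corpus, nor was any of all probe sets (0%). These arrays include the library labelled germ-free corpus 3, whose markers opposed its label and which had 345 for Sult1a1. Among the conventional arrays alone 23 members were called, against 12.9% of all. The call of Cyp2d26 was lost without germ-free colon 1 and without germ-free corpus 1 (highest adjusted p 0.0564, limma). Between rectum and colon no member was called by limma, and none of all 9033 probe sets was (0%). At an unadjusted p under 0.05 there was 1 member and 202 of all probe sets. That member was Cyp2e1, the ethanol-inducible cytochrome, at 165 ± 55 (n = 6) in the rectum and 309 ± 136 (n = 6) in the colon (adjusted p = 1, limma).

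Some relatives that are neighbours in the RefSeq gene order, with no coding gene between them, had their highest mean in different regions. Such pairs were Adh7 and Adh1, Aldh3a1 and Aldh3a2, Aldh1a7 and Aldh1a1, and Cyp2s1 and Cyp2b10. The others were Cyp2d10 and Cyp2d9, Cyp2c39 and Cyp2c38, Gstm6 and Gstm3, Gstm3 and Gstm2, Sult1b1 and Sult1d1, and Cyp2a12 and Cyp2f2. The probe sets of Gstm3 disagreed on the region. Regional means of Cyp2a12 and Cyp2c39 were close, the highest 1.18 and 1.25 times the lowest without the 3 libraries. Cyp2d10 and Cyp2d9 parted only as rectum and colon without the 3 libraries, and both were highest in the colon with all arrays. Sult1d1 had 692.5 in germ-free colon 1, the array with raised Fabp2. Its other colon arrays had 199.2 to 316, and its jejunum arrays without the 3 libraries 256.5 to 437.6. Aldh1a1 was close in jejunum and corpus, at 3025 ± 1193 and 2759 ± 852 (n = 6 each, all arrays). In other pairs, Cyp3a11 and Cyp3a25, Gstm2 and Gstm1, and Cyp2c29 and Cyp2c39, it was in the same region, and no difference between the genes of a pair was tested. Adh7 was at 1291 ± 135 in the corpus and 333 ± 39.4 in the rectum without the 3 libraries, and Adh1 at 506 ± 110.3 and 4302 ± 865. Aldh3a1 had its highest mean in the corpus and Aldh3a2, the fatty aldehyde dehydrogenase, in the jejunum. Cyp2d26 and Cyp2d10 are not direct neighbours, with Cyp2d9 and other coding genes between them. Cyp2d26 had its highest mean in the jejunum, and Cyp2d10 in the rectum without the 3 libraries and in the colon with all arrays.

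The 250 bases before the gene start are shown for Adh7 and Adh1, for Cyp2d26 and Cyp2d10 and for Cyp3a11, because their signals differ between regions. They were taken from RefSeq (GRCm38.p6) and run 5′ to 3′ along the gene. Cyp3a11 lies at chr5:145879855-145880104 on the minus strand, Cyp2d26 at chr15:82794246-82794495 on the minus strand, Cyp2d10 at chr15:82407195-82407444 on the minus strand, Adh7 at chr3:138217523-138217772 on the plus strand and Adh1 at chr3:138277335-138277584 on the plus strand. Capitals mark a match to a motif named below.
Cyp3a11: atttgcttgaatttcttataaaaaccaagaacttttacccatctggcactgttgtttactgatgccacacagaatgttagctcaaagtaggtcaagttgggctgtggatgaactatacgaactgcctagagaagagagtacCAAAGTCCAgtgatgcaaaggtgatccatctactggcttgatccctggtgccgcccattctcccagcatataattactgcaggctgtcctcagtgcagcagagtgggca
Cyp2d26: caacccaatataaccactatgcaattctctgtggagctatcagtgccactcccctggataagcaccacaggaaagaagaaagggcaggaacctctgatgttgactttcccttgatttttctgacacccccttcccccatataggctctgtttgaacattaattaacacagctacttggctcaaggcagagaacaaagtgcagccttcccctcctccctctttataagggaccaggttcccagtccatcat
Cyp2d10: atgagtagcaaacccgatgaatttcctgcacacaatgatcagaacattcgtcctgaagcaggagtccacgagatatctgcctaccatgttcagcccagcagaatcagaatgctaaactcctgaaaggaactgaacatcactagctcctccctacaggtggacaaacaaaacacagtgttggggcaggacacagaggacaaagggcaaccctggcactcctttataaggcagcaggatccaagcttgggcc
Adh7: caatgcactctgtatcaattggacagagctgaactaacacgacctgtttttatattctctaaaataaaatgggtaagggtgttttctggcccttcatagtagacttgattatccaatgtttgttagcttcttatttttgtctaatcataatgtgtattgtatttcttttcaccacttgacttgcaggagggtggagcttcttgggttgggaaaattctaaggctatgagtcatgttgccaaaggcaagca
Adh1: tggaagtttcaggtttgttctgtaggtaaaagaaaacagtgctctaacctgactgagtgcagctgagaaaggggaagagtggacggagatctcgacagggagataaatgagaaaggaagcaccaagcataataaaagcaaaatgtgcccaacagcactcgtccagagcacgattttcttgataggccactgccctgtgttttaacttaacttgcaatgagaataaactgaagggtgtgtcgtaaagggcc

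Adh7 and Adh1 were identical at 46.5% of aligned positions in this window and Cyp2d26 and Cyp2d10 at 50.2%. Motifs were searched on both strands: the core of the Ahr site, GCGTG, of the antioxidant response element, TGACNNNGC, of HNF4, CAAAGTCCA, and of CDX, TTTATNG, and a palindromic HNF1 motif. Of the 57 tested genes 45 had a promoter in the table, with 54 start sites. The Ahr core was in 15 of these 54 windows (27.8%), against 28.2% of all 32851, the antioxidant core in 3 (5.56%) against 10.2%, and the CDX core in 7 (13%) against 9.81%. The HNF4 motif was in 1 of 54, Cyp3a11, where it begins 109 bases before the start, against 0.384% of all, and the HNF1 motif in none of the 54 and 0.00913% of all. A match is a description of the letters, and no match says only that these letters are not in this window.

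Between germ-free and conventional mice no member was called in any single region with all arrays. In the jejunum no member was called with all arrays by limma, against 0.465% of all probe sets, and 8 members had an unadjusted p under 0.05, all higher in germ-free mice (1185 of all 9033 probe sets had such a p, 463 higher). The germ-free arrays all lay above the conventional arrays for 11 members (15.3%), against 7.03% of all probe sets, and all below for none, against 8.59%. With the 3 libraries left out the arrays lay above for 21 members (29.2%, against 11.5%) and below for 4 (5.56%, against 13.1%). In that setting 17 members had an unadjusted p under 0.05, 2 of them lower (Cyp1b1 and Cyp3a25), and 1096 of all 9033 probe sets had such a p, 435 higher and 661 lower. With all arrays the median difference of the members was 0.21 and that of all probe sets -0.02, and without the 3 libraries 0.26 and -0.004. By family the median with all arrays was 0.22 for cytochromes, 0.20 for aldehyde dehydrogenases and glutathione transferases and 0.93 for the 4 carboxylesterase probe sets.

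Cyp4b1 gave 3039.6, 2164 and 1481 in the germ-free and 818.5, 561 and 239.5 in the conventional jejunum arrays. All germ-free values lay above all conventional ones, and above the 693 of the library labelled conventional rectum 1, which had jejunal markers. The difference was 2.16 ± 0.56 in log2 units (4.46-fold; adjusted p = 0.0904, limma) and 1.66 ± 0.48 without the 3 libraries (adjusted p = 0.144). It passed the threshold on leaving out all 5 libraries (adjusted p = 0.00537), which took out no further jejunum array, and on leaving out germ-free jejunum 3 alone, the array with the raised Atp4a. Cyp2b10 gave 2121, 512 and 718 against 447, 254 and 58.4, without overlap but with a wide spread (adjusted p = 0.145). Aldh3a2, the fatty aldehyde dehydrogenase, gave 773.5, 861 and 799 against 485, 584 and 337 by the first of its 2 probe sets (1.77-fold; adjusted p = 0.0904, limma). Cyp2d26 gave 2671, 2165 and 1502 against 768, 1053.5 and 90.5, and Cyp4v3 7926, 4489 and 3453 against 3460.2, 2399.6 and 186. In both, the lowest conventional value is that of the library labelled conventional jejunum 3, and without the 3 libraries the difference was 1.19 ± 0.56 for Cyp2d26 and 0.79 ± 0.43 for Cyp4v3, whose groups overlapped. Ces2g, a carboxylesterase, gave 335, 120.3 and 143 against 75.3, 60.5 and 157.

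**Figure D3:**
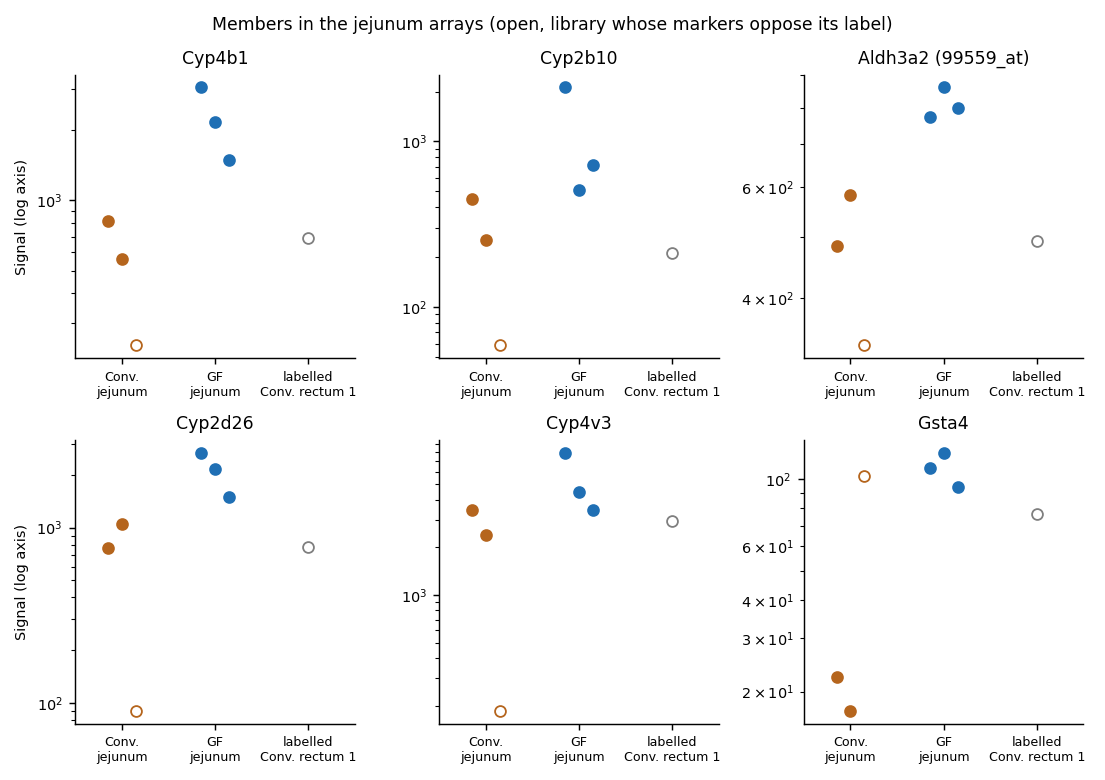
Signal on a log axis of 6 members in the conventional and germ-free jejunum arrays, and, as an open grey point, in the library labelled conventional rectum 1, which carries jejunal markers; the open brown point is the library labelled conventional jejunum 3. Germ-free values of Cyp4b1 run from 1481 to 3040, all above the grey point at 693.

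Gsta4 was the 1 member called in the jejunum without the 3 libraries, when 0.565% of all probe sets were. It gave 108.5, 122 and 93.8 in germ-free mice and 22.3 and 17.3 in conventional jejunum 1 and 2, 4.94-fold (2.31 ± 0.32; adjusted p = 0.0025, limma). Conventional values under the floor of 21.2 were raised to it. The library labelled conventional jejunum 3 had 102 and the library labelled conventional rectum 1 76.9, and with all arrays the adjusted p was 0.436. Adh1 gave 2616, 624 and 401 in germ-free mice, 156 and 186 in conventional jejunum 1 and 2 and 139 in the library labelled conventional rectum 1 (adjusted p = 0.0774 without the 3 libraries and 0.0442 without 5, limma). Summed markers of gland cells and leukocytes did not overlap between the same arrays, and those of enterocytes did. The summed signal of 6 corpus gland markers was 1620, 1241 and 8614 in the germ-free and 651 and 725 in conventional jejunum 1 and 2, that of 8 leukocyte markers 7492, 6810 and 9314 against 17754 and 21733, and that of 10 enterocyte markers 55420, 38721 and 48765 against 34128 and 51611. The part of these cells in the jejunal differences was not tested.

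In the corpus no member was called by limma, nor was any of all probe sets (0%), and 6 members and 817 of all probe sets had an unadjusted p under 0.05. The lowest p was that of Cyp2s1, with 1610, 1616 and 1652.5 in conventional and 1453, 1302.5 and 416 in germ-free corpus. The last of these belongs to the library whose markers opposed its label, and without the 3 libraries the difference was -0.24 ± 0.20. Cyp2e1 gave 418, 268 and 293 in germ-free and 139, 172 and 253 in conventional corpus, without overlap (adjusted p = 0.535). Ugt2b34, Cyp2c39, Sult1d1 and Gstm6, the next of lowest p, had adjusted p-values of 0.501 to 0.537. Adh7 in the corpus was 1347, 1308 and 1418 in conventional and 1062 and 1319 in the first and second germ-free arrays, which overlapped. On leaving out germ-free corpus 1 alone 3 members were called, against 1.76% of all probe sets, Ugt2b34 and Sult1d1 among them. No corpus call was made without the 3 libraries either (0.0664% of all probe sets were). The germ-free arrays all lay above the conventional ones for 6 members, against 8.21% of all probe sets, and all below for 4, against 5.34%. With the 3 libraries left out these were 8 members, against 13.7%, and 7, against 11.8%.

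In the colon no member was called either, against 0.0111% of all probe sets, with 8 members and 733 of all at an unadjusted p under 0.05. The germ-free arrays all lay above the conventional ones for 12 members (16.7%, against 8.4% of all) and all below for 5 (6.94%, against 5.96%). Aldh1a7 gave 119.5, 130.1 and 176 in germ-free and 45.7, 77.1 and 34 in conventional colon (1.51 ± 0.42; adjusted p = 0.44), and Gstt2 gave 228, 209 and 187 against 298.5, 339 and 344 (-0.66 ± 0.18; adjusted p = 0.421). Neither pair of groups overlapped. No member was called in the colon without the 3 libraries either (0.0886% of all probe sets were). Cyp4b1, Ugt2b5 and Adh5 were also among the 8. Germ-free colon 1, the array with raised Fabp2, had 1489 for Cyp4b1, and germ-free colon 2 and 3 had 319.8 and 283. For Ugt2b5 it had 669, and the other germ-free arrays 159.8 and 139. Without 5 libraries, that array included, the differences were 0.67 ± 0.26 for Cyp4b1 and 1.51 ± 0.53 for Ugt2b5. On that array Aldh1a1, the retinaldehyde-oxidising enzyme, was at 5212, beside 818 to 1555 on the other colon arrays. In the rectum no member was called (0.0111% of all probe sets were), none had an unadjusted p under 0.05, and 315 of all probe sets had. The germ-free arrays all lay above the conventional ones for 5 members, against 7.17% of all probe sets, and all below for none, against 4.47%. With the 3 libraries left out the arrays lay above for 10 members (13.9%, against 10.8%) and below for 4 (5.56%, against 9.12%), and 4 members had an unadjusted p under 0.05: Aldh3a1 and Aldh3a2, higher, and Gstm6 and Gstt1, lower (adjusted p = 1, limma; 222 of all probe sets had such a p). Aldh3a1 had 242.4 in germ-free rectum 1, the array with raised Atp4a, and 67.3 and 76.6 in germ-free rectum 2 and 3. Conventional rectum 2 and 3 had 39 and 67.5. The library labelled conventional rectum 1 had 1507 for Cyp3a11, and the other 5 rectum arrays had 2.1 to 5.0. For Cyp4v3 the germ-free minus conventional difference was -1.40 ± 0.93 with all arrays and -0.06 ± 0.43 without the 3 libraries.

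**Figure D4:**
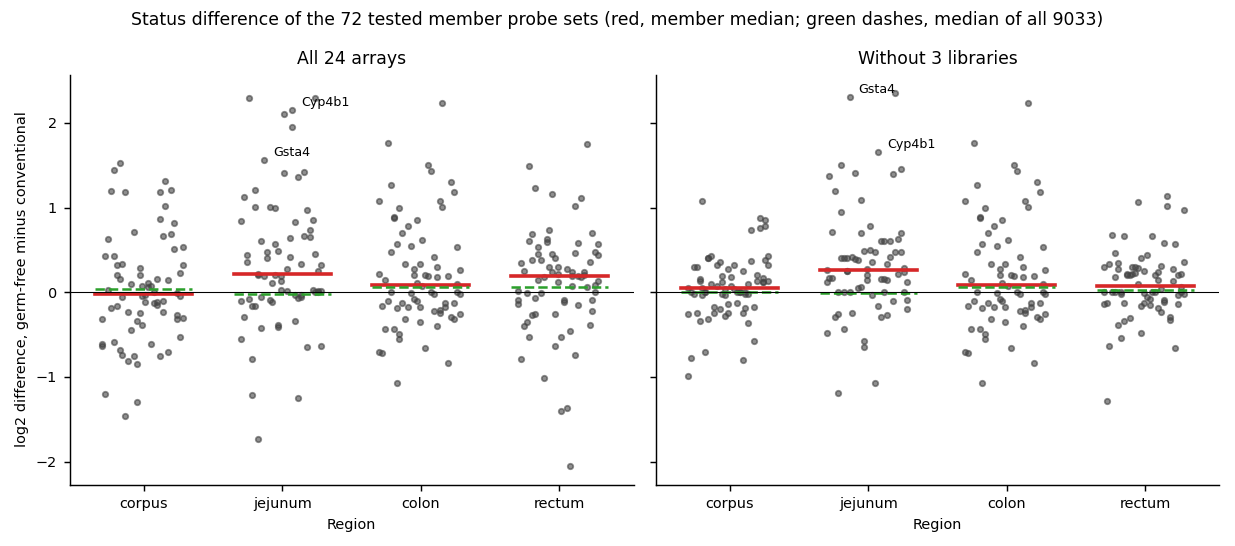
Germ-free minus conventional difference in log2 units for the 72 tested members in each region, 1 point per probe set, with all 24 arrays (left) and without 3 libraries (right); red lines are the member medians and green dashes the medians of all 9033 probe sets. In the jejunum the member median is 0.21 with all arrays and 0.26 without the 3 libraries, and that of all probe sets lies at -0.02 and -0.00.

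Averaged over the 4 regions, 1 of 72 members was called, Aldh3a2 by the second of its probe sets (1.39% of members, against 1.68% of all probe sets). It gave 202, 144 and 194 in germ-free and 124, 181 and 70.6 in conventional jejunum, and 123, 156 and 172 against 67.1, 79.4 and 78.1 in the colon. In the rectum the germ-free arrays gave 135, 89.2 and 143 against 118, 65.9 and 87.6, and in the corpus 117, 171 and 120.3 against 108.5, 118 and 94.4. The groups did not overlap in the colon, and in the other regions they overlapped. The mean difference was 0.60 ± 0.15 (1.51-fold; adjusted p = 0.0448, limma), and 7 of 24 fits that each leave out 1 array kept the call (highest adjusted p = 0.0866). The call was lost with quantile normalization, with equal array medians, with no filter and with the replicate block (adjusted p = 0.0603, 0.0844, 0.06 and 0.179, limma). The first Aldh3a2 probe set had 0.37 ± 0.11 (adjusted p = 0.0862). Next in order of p came Ugt2b5, Cyp7b1, which hydroxylates oxysterols, Ugt2b34 and Cyp4b1, with adjusted p-values of 0.108 to 0.164. Without the 3 libraries Ces1d was called as well (2 members, against 1.46% of all probe sets), and without 5 libraries Cyp4b1, Cyp2d26, Gsta4 and Cyp1a1 beside Aldh3a2 (5 members, against 1.46%). No member was called for a difference in microbial effect between regions (0.0221% of all probe sets were; unadjusted p under 0.05 in 5 members and 488 of all). Without all 5 libraries Gsta4 was (adjusted p = 0.00318, limma; 0.0775% of all).

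Cyp1a1 and Cyp7b1, members of low signal picked after their values were seen, had their highest signals on arrays whose low end was raised. Cyp24a1 did as well by its tested probe set, with 49.2 to 69 on the 5 arrays named next and at most 40 elsewhere. Others did not: Aldh1a3 was highest in conventional jejunum 2 (101). How many members went either way was not counted. The 25th percentile of all signals was 26.9 to 34.5 on germ-free corpus 3, jejunum 3, colon 2 and 3 and rectum 3, and 16.5 to 23.3 on the other 19 arrays. Cyp1a1, the classical target of Ahr, was at 70.3 and 76.8 in germ-free colon 2 and 3 and at 10.2 in germ-free colon 1, beside 11.6, 20.8 and 27.3 in conventional colon. Over all 24 arrays its highest values were on germ-free corpus 3 (87.9), colon 3 and colon 2, and germ-free rectum 3 had 46.6. Without 5 libraries it was called in the colon together with Aldh1a7 (2 members, against 0.753% of all; adjusted p = 0.0442, limma), with only germ-free colon 2 and 3 left. The other Cyp1a1 probe set had at most 51.3 on any array and was not tested. Cyp7b1 followed the same arrays, from 84.4 to 147 on the 5 and from 18.3 to 60.3 elsewhere. The part of the array's low end in these values was not tested.

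**Figure D5:**
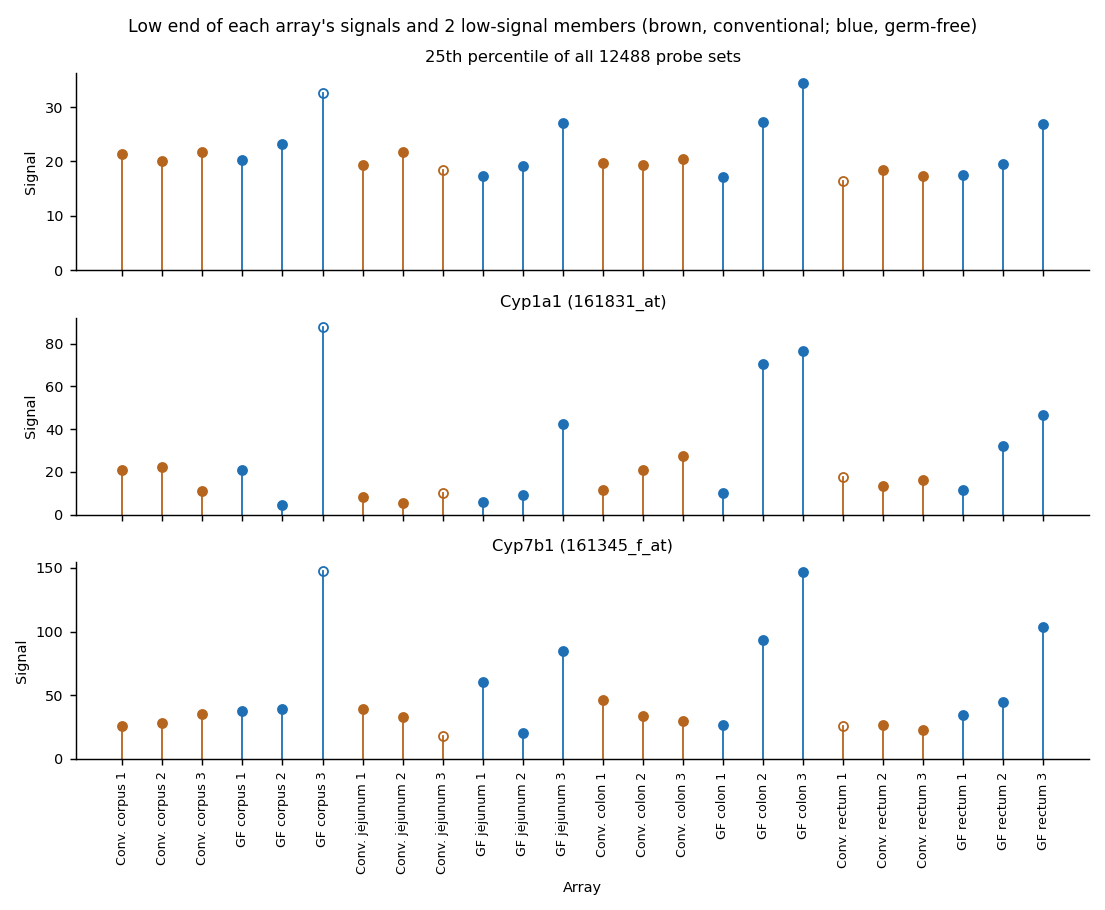
The 25th percentile of all 12488 signals on each array (top) and the signals of Cyp1a1 (middle) and Cyp7b1 (bottom), 1 stem per array. Germ-free corpus 3 and colon 3 are the 2 highest arrays in all 3 panels, at 32.6 and 34.5 for the 25th percentile.

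Genes of the same pathways outside the 7 families were read from lists chosen with earlier results known. Among 26 probe sets of 19 regulators, 10 exceeded their corpus level in the jejunum and 3 lay below it, where 13.7% of all probe sets were higher and 19.2% lower. The xenobiotic receptor Nr1i2 was at 131 ± 34.1 against 29.2 ± 22.4 (n = 6 each; adjusted p = 2.04e-05, limma), the vitamin D receptor Vdr at 541 ± 122 against 92.3 ± 206 by 1 of its probe sets and the bile acid receptor Nr1h4 at 389 ± 94.4 against 148 ± 142. Among 10 efflux transporter probe sets 4 were higher in the jejunum, Abcg2, Abcc2 and Abcb1a among them (4.41- to 10.1-fold), and 1, Abcc1, lower. Of 7 probe sets of Ahr-induced genes outside the families 5 were lower in the jejunum and none higher, led by Serpinb2 (30.2-fold) and the quinone reductase Nqo1 (5.57-fold); of 19 other oxidising and reducing enzymes 5 were higher, with Maoa 9.82-fold, and 9 lower, with Cbr3 9.12-fold. Serpinb2 and Nqo1 lay on the corpus side with the squamous markers given above. These levels and counts are from all arrays, the libraries labelled conventional jejunum 3 and germ-free corpus 3 included. Without the 3 libraries 11 regulator probe sets were higher in the jejunum and 4 lower, against 16.8% and 21.9% of all probe sets. For the transporters the counts were 5 and 1, for the Ahr-induced genes 0 and 5, and for the other oxidising and reducing enzymes 6 and 8. For the colon against the jejunum, where 9.1% of all probe sets were higher and 5.34% lower, 2 regulators were higher, Ahr (90.8 ± 7.99 against 64.4 ± 17.7) and Pparg, and 5 lower, among them Nr1i3 and Nr0b2. In germ-free against conventional jejunum, where 0.465% of all probe sets were called, 2 regulators were higher and none lower: Ppara, the fatty acid receptor that drives Cyp4a genes, 567.5 ± 202 against 159.9 ± 57.5 (n = 3 each; adjusted p = 0.0231, limma), and Bach1, 109.7 ± 43.9 against 8.47 ± 3.23 (adjusted p = 0.0332), whose conventional mean lies under the floor. Cyp4a10 and Cyp4a14, with no signal above 41.9 and 53.8, were not tested, nor was any link of Ppara to the members. Ppara lost its call without conventional jejunum 3 and without germ-free jejunum 1 (adjusted p = 0.127 and 0.145, limma). Bach1 lost it without any 1 of the conventional jejunum arrays or germ-free jejunum 2 (highest adjusted p = 0.148). No probe set of the CAR- and PXR-induced list (9 tested), the Ahr-induced list (7), the other oxidising and reducing enzymes (19), the other conjugation genes (25), the retinoid handling genes (9) or the transporters (10) was called there with all arrays. Without the 3 libraries 1 of the 25 was, the glutathione reductase gene Gsr, lower in germ-free mice (516 ± 80 against 1134 ± 166; adjusted p = 0.0322, limma).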

How the data were processed

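The deposited values are linear signal intensities of 12488 probe sets on 24 Affymetrix arrays, which the authors had scaled to a trimmed mean of 200.1 to 200.14 per array, as read from the values; the algorithm and software are not given in the sources used here. Signals under 21.2, the 25th percentile, were raised to that floor and log2 transformed. Probe sets were kept where 3 or more arrays exceeded 51.5, the 40th percentile, which left 9033. A linear model was fitted to them in limma 3.58.1 under R 4.3.3 (group means of all 8 groups, eBayes with trend), with Benjamini-Hochberg adjustment over all 9033 and a threshold of 0.05. Fold changes are on the floored log2 scale, and "at least" marks a group at the floor. No counts lie behind the values, so the number of arrays limits the precision. The fit was tested on simulated data.

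Probe sets were named from the platform annotation: 10855 list 1 gene, 396 several and 1237 none. Region levels are means over both states. Members named were, per comparison, those called, up to 12 of lowest p per direction, or up to 6 of lowest p where fewer than 6 were called, the 6 of highest mean per region, 10 preset genes, and up to 4 genes of lowest p per pathway list. The members, lists and rule were chosen with earlier results of these data known. Alternatives were quantile normalization, equal array medians, other floors and filters, variance without trend, the arrays compared alone, a replicate block, leaving out each array, leaving out 3 or 5 libraries, and each microbial state alone.

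Each animal gave 4 regions, but the labels do not say that equal replicate numbers mark 1 animal. Of 36 pairs of same-numbered arrays from 2 regions of 1 state, 16 had correlated deviations over 0.1. Of the 12 pairs of groups, germ-free colon with germ-free rectum alone had all 3 over 0.1, and every comparison of regions pools both states. The fit therefore has no block, and the block (correlation 0.12) is an alternative. By number, every pair of germ-free arrays numbered 3 was over 0.1 (0.16 to 0.455), and these arrays shared a raised 25th percentile (26.9 to 34.5). The deviations came from all 24 arrays. The conventional jejunum and rectum pairs, which hold the libraries labelled jejunum 3 and rectum 1, gave 0.615, -0.497 and 0.666. The correlations therefore do not settle whether equal numbers mark 1 animal.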

Additional observations from a re-analysis of the deposited data

Results flagged for a closer look

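Cyp2s1, an epithelial cytochrome, was singled out because every germ-free array lay above every conventional array in the jejunum and below in the corpus. The jejunum gave 541, 565 and 507 in germ-free and 429, 380.2 and 357 in conventional mice, and the corpus 1453, 1302.5 and 416 against 1610, 1616 and 1652.5. The test of a difference in microbial effect between the 4 regions did not pass (adjusted p = 0.904, limma). The value of 416 belongs to the library labelled germ-free corpus 3, whose markers opposed its label. Without the 3 libraries the corpus difference was -0.24 in log2 units, and -0.82 with all arrays.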

How the results depend on the processing

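Counts of called members moved with these choices, and so did the shares of all probe sets called, given in brackets for some of them. In the jejunum 1 member was called with no filter, 1 without 3 libraries (0.565%), 3 without 5 libraries (0.531%) and 0 to 1 on leaving out 1 array. In the corpus 0 to 3 were called on leaving out 1 array, the highest without germ-free corpus 1 (1.76%), and in the colon 2 without 5 libraries (0.753%). For the mean over regions the count of 1 (1.68%) became 0 with quantile normalization and 0 with equal array medians. It became 2 without 3 libraries (1.46%), 5 without 5 libraries (1.46%) and 0 to 3 on leaving out 1 array. The difference between regions gave 1 with no filter and 1 without 5 libraries (0.0775%). Colon against jejunum, at 18 with all arrays (14.4%), gave 36 without 3 libraries (24.8%) and 41 without 5 (25%). It gave 0 among conventional arrays (0%) and 12 to 28 on leaving out 1 array. Colon against corpus, at 28 with all arrays (18.3%), gave 47 without 5 (30.4%), 0 among germ-free arrays (0%) and 26 to 38 on leaving out 1 array. Jejunum against corpus stayed between 36 and 41 on leaving out 1 array. The libraries left out are those with opposing markers; the cause of the other shifts was not tested.

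With the replicate number as a block (correlation 0.12), the mean over regions gave 0 called members instead of 1, and no other count moved by over 1.5 times. The labels do not tie the numbers to animals, and the correlations of same-numbered arrays ran from -0.497 to 0.666. Both ends were conventional jejunum and rectum pairs, the groups of the libraries labelled jejunum 3 and rectum 1. Those of the 3 germ-free colon and rectum pairs ran from 0.157 to 0.455.

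Among uncalled means over regions, the sign turned for Gsta4 with quantile normalization (-0.025) and the floor at the 40th percentile (-0.12), for Cyp2e1 with equal medians (-0.029), and for Adh7 (0.10 and 0.15) and Gstp1 (0.082 and 0.092) without 3 and 5 libraries. On leaving out 1 array these ran from -0.12 to 0.48 for Gsta4, -0.070 to 0.14 for Cyp2e1, -0.16 to 0.10 for Adh7 and -0.056 to 0.092 for Gstp1. Over all 162 gene results and 4011 alternatives, 3727 kept direction and side of the threshold, 243 fell below it, 10 passed it and 31 turned sign. Differences of exactly 0, where both groups lie at the floor, were not compared. Signals near the floor have no order.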
